A study of Mus musculus with 8 samples.

Results

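The genes described here are 7 genes grouped under glutamate uptake and recycling: Slc1a1, Slc1a2, Slc1a3, Glul, Slc38a1, Slc38a3 and Gfap. They were chosen by function, as genes of this exchange known from astroglia or neurons, with Gfap as a marker of astroglia. All were found by their Ensembl identifiers in the annotation of the mouse NCBIM37 assembly. All 7 were among the 36536 genes counted. Total mRNA was sequenced from cells sorted from the cochlea of B6;FVB-Tg(Lfng-EGFP)HM340Gsat/Mmucd mice, in which a bacterial artificial chromosome drives green fluorescent protein (GFP) from the Lfng locus. The mice were 1 day (P1) or 6 days (P6) old, received no treatment, and the cells were not cultured. At each age the GFP+ cells and the GFP- cells of the cochlea were sequenced as 2 libraries each, so that 4 groups hold 8 libraries. All groups carry the transgene. The reporter marks border, inner phalangeal, outer pillar and Deiters' cells but not inner pillar cells, the gate kept the brightest GFP+ cells, and each library pooled cells of many cochleas. Nothing in the labels says that replicates came from separate animals, so p-values measure the spread between these samples, which may be technical.

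Glutamate is the transmitter that inner hair cells release onto the afferent nerve endings, and it must be cleared from the cleft. In brain, astrocytes take it up through the sodium-dependent transporters GLAST (Slc1a3) and GLT-1 (Slc1a2), join it to ammonia with glutamine synthetase (Glul), and release the glutamine through the system N transporter Slc38a3. Neurons take glutamine up through system A transporters such as Slc38a1, and carry the glutamate transporter EAAC1 (Slc1a1). Gfap encodes the intermediate filament by which astrocytes are usually recognised. Supporting cells around the inner hair cells are known to carry GLAST, and they are often called the glia of the organ of Corti.

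Library totals, counted over genes, ran from 17769024 to 67695039 reads, and a level is given as counts per 1000000 of that total (CPM). The summed level of 12 supporting cell markers was 16690 to 24167 CPM in GFP+ libraries and 449 to 3084 CPM in GFP- libraries, the direction the labels give, and none of the 12 was at 0 in any library. Of 12 hair cell markers 10 were also higher in GFP+ cells at each age, with median log2 fold changes of 3.26 at P1 and 4.14 at P6. Without Myo6, which led their sum in every library, they summed to 327 to 559 CPM in GFP+ and 34.5 to 74.9 CPM in GFP- libraries. Replicate 2 of the P6 GFP+ cells stood apart from replicate 1, with 2.03 times its summed fibrocyte and mesenchyme markers, 3.50 times its endothelial markers and 4.28 times its melanocyte and strial markers. Values of the 7 genes that move with this library are given without it too, as are counts of most gene lists. A group left with 1 library is then assumed to vary like the others. The dissection differed between ages: lateral wall, stria and Reissner's membrane were taken off the duct at P1 but only in part at P6, so that in GFP- cells age and dissection cannot be told apart.

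Slc1a3 and Glul were abundant in every group, while Slc1a2, Slc38a3, Gfap and Slc1a1 were low in GFP+ cells and higher in GFP- cells. At P1, 5 of the 7 genes were lower in GFP+ cells at adjusted p below 0.01 and 0 were higher. Of all 18682 genes tested, 20.7% were lower and 16.6% higher in GFP+ cells at this threshold. With a fold change above 4 as well, 4 of the 7 genes were lower, against 11.4% of all genes. The median log2 fold change was -3.44 over the 7 genes and 0.01 over all genes tested.

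**Figure D1:**
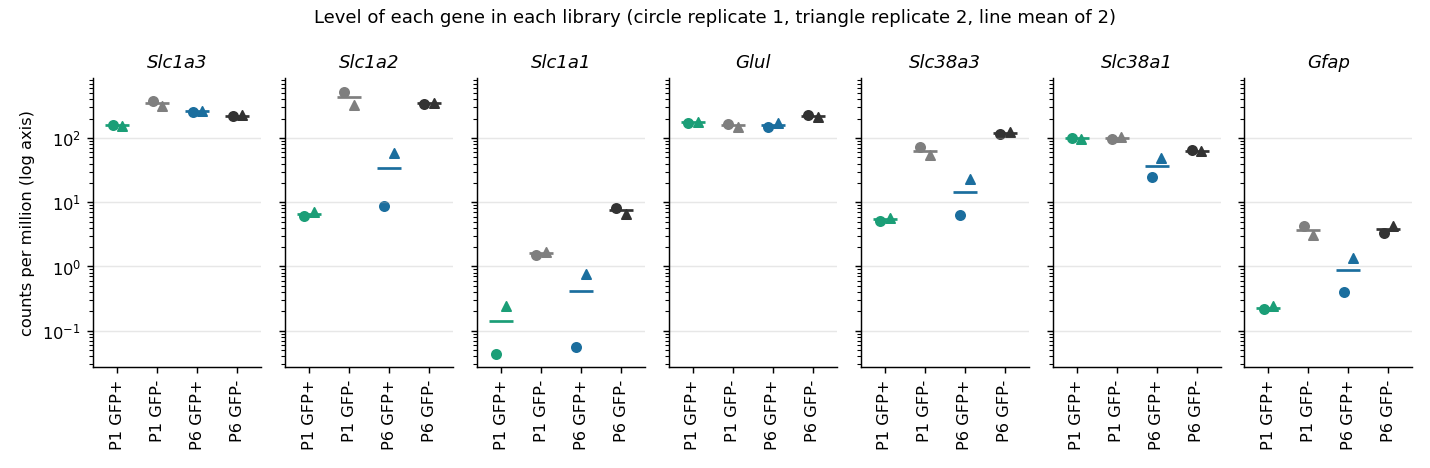
Level of each of the 7 genes in each of the 8 libraries, in CPM on a log axis, with circles for replicate 1, triangles for replicate 2 and a line at the mean of 2. Slc1a3 and Glul stay between 146 and 379 CPM in all libraries, and for Slc1a2, Slc38a3, Gfap and Slc1a1 both GFP+ libraries lie below both GFP- libraries at each age.

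Among the transporters that remove glutamate, Slc1a3 (chr15:8584124-8660764, minus strand, NCBIM37) was at 157.3 and 156.6 CPM in GFP+ cells and at 379 and 312 CPM in GFP- cells of P1 mice. The groups did not overlap, and the GFP+ cells held 2.05 times less (log2 fold change -1.03, SE 0.12, adjusted p = 0.00089 in edgeR's quasi-likelihood test). Without P1 GFP+ replicate 1 the adjusted p was 0.0101, and without replicate 2 of that group it was 0.0118. A lower level in bulk cells may come from fewer cells of a type or from less RNA per cell, and these cannot be told apart here.

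At P6 the relation of the fractions was another. Slc1a3 was at 252 and 268 CPM in the GFP+ libraries and at 217 and 229.5 CPM in the GFP- libraries. The GFP+ values were now the higher, without overlap, but the difference did not pass the test (log2 fold change 0.21, SE 0.17, adjusted p = 0.37). The change of the ratio of GFP+ to GFP- cells between the ages was tested over all 8 libraries. For Slc1a3 the log2 ratio at P1 was 1.23 below that at P6 (SE 0.19), with an adjusted p of 0.0099, and 6.38% of all 19233 genes tested passed this test of interaction at adjusted p below 0.05. Slc1a3 was the 1 of the 7 genes to do so. Without P6 GFP+ replicate 2 the value was -1.21 and the adjusted p 0.0037. The call was lost without P1 GFP+ replicate 1 (adjusted p = 0.071), P1 GFP+ replicate 2 (0.075), P6 GFP- replicate 1 (0.057) or P6 GFP- replicate 2 (0.057), with differences of -1.25 to -1.22.

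The 2 sides of that interaction were the following. From P1 to P6 the mean of Slc1a3 went from 156.9 ± 0.509 to 260.1 ± 11.6 CPM in GFP+ cells (SD, n = 2), a fold of 1.77 that missed the threshold at adjusted p = 0.0126. In GFP- cells it went from 345 ± 46.9 to 223 ± 8.80 CPM (SD, n = 2), with an adjusted p of 0.062. The log2 fold change of 0.82 in GFP+ cells was 0.81 without P6 GFP+ replicate 2 (adjusted p = 3.7e-08) and 0.84 without P6 GFP+ replicate 1 (4.9e-07), but with a P1 GFP+ library left out the adjusted p was 0.15 (replicate 1) or 0.21 (replicate 2).

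Slc1a2 (chr2:102498816-102630941, plus strand, NCBIM37) showed the widest gap between the fractions at P1 among the 7 genes. It was at 6.07 and 7.03 CPM in GFP+ cells and at 529.8 and 329 CPM in GFP- cells. Both GFP+ libraries lay far below both GFP- libraries, by a factor of 61.4 (log2 fold change -5.94, SE 0.28, adjusted p = 3.1e-05). At P6 the GFP+ libraries held 8.61 and 58.9 CPM and the GFP- libraries 340.2 and 354 CPM. Replicate 2 of the GFP+ cells was 6.84 times replicate 1, and with this spread the log2 fold change of -3.38 (SE 0.83) had an adjusted p of 0.028. Without replicate 2 it was -5.31 (adjusted p = 8.6e-11) and without replicate 1 it was -2.54 (3.9e-08). Between ages the log2 fold change in GFP+ cells was 2.45 (adjusted p = 0.099), but 0.53 without P6 GFP+ replicate 2 (adjusted p = 0.029) and 3.24 without replicate 1 (1.5e-14). In GFP- cells the adjusted p was 0.74.

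Slc1a1 (chr19:28909539-28988450, plus strand, NCBIM37) was rare throughout. In GFP+ cells it gave 2 and 6 reads at P1 and 1 and 23 reads at P6, against 58 and 108 reads in P1 GFP- cells and 508 and 452 reads in P6 GFP- cells. These are 1.53 and 1.71 CPM in P1 GFP- cells and 8.24 and 6.68 CPM in P6 GFP- cells, so both libraries of the older age were higher. The gene was 12.4 times lower in GFP+ cells at P1 (adjusted p = 0.0039, and 0.022 without P1 GFP+ replicate 1). At P6 the log2 fold change was -4.01 (SE 0.72, adjusted p = 0.012), and -3.25 without P6 GFP+ replicate 1. Without replicate 2 the GFP+ cells held 1 read, which is 0.755% of the GFP- mean with an exact Poisson interval (95%) of 0.0191% to 4.21% that covers counting error only. In GFP- cells it rose with age by a log2 fold change of 2.39 (SE 0.25, adjusted p = 0.0016, or 0.021 without P6 GFP- replicate 1, 0.0105 without P6 GFP- replicate 2 and 0.032 with all 8 libraries in the fit). In GFP+ cells its counts fell below the filter, and it was not tested between ages.

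Set side by side per kilobase of exon (RPKM, from union exon lengths of 8537, 13153 and 6170 bases), Slc1a3 held nearly all of the summed level of these 3 transporters in GFP+ cells. Its share there was 97.5% and 97.0% at P1 and 97.8% and 87.2% at P6. In GFP- cells it was 52.2% and 59.1% at P1 and 48.3% and 49.0% at P6, most of the remainder being Slc1a2. The sum of the 3 was 18.9 RPKM in both P1 GFP+ libraries and 61.9 to 84.9 RPKM in P1 GFP- libraries, against 30.2 to 36.0 RPKM in P6 GFP+ and 52.6 to 54.9 RPKM in P6 GFP- libraries. A single transporter thus led in GFP+ cells at both ages, and a pair shared the sum in GFP- cells.

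**Figure D2:**
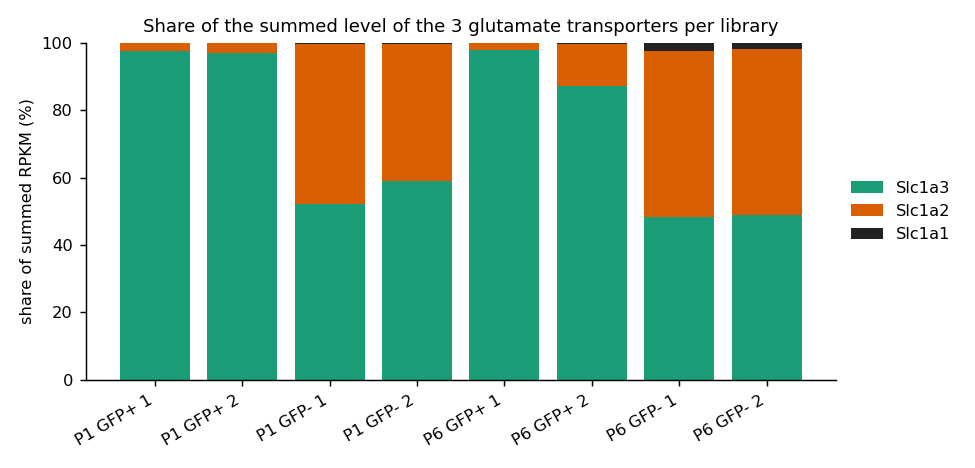
Share of the summed RPKM of Slc1a3, Slc1a2 and Slc1a1 held by each gene, in percent, 1 bar for each of the 8 libraries. Slc1a3 makes up 87.2% to 97.8% of the bar in GFP+ libraries and 48.3% to 59.1% in GFP- libraries.

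The stretch before the start of each of these genes is shown because Slc1a3 and Slc1a2, the leading glutamate transporters, differed in their division between the fractions, with Gfap as a gene that ran close to Slc1a2. These are the 250 bases upstream of that start on the gene's strand, in the GRCm38.p6 assembly, an assembly later than that of the counts. A gene can have other starts, and whether this start is the first of the gene as counted was not checked, least of all for Slc1a2. Capitals mark matches on either strand to the TATA box (TATAAA), the CCAAT box (CCAAT) or a SOX core (ACAAAG). These motifs do not overlap one another. The window of Slc1a3 lies at chr15:8710808-8711057 on the minus strand, that of Slc1a2 at chr2:102706188-102706437 on the plus strand and that of Gfap at chr11:102897201-102897450 on the minus strand.
Slc1a3: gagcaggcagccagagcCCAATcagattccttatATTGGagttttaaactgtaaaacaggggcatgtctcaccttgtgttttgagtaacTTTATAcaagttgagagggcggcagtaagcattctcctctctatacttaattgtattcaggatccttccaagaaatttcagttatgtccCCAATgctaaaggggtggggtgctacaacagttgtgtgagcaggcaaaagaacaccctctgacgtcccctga
Slc1a2: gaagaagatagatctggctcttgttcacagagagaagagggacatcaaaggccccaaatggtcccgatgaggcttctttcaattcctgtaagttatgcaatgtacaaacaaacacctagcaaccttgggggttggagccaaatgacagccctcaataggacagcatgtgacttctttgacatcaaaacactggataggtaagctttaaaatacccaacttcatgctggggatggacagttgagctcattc
Gfap: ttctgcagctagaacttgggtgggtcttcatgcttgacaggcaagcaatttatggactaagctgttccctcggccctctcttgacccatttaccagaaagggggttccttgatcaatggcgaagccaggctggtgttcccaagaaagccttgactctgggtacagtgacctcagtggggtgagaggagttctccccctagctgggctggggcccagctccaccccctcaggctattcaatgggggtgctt

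In these windows Slc1a3 held 3 matches to CCAAT and 1 to TATAAA, and Slc1a2 and Gfap held none of the 3 motifs. Among all 32851 windows of this length in the RefSeq table, 33.8% held CCAAT, 12.4% TATAAA and 16.5% ACAAAG. The windows of the 5 members listed there differed in base composition. GC content was 44.8% in Slc1a2 and in Slc1a3, 55.6% in Gfap, 64.8% in Glul and 70.4% in Slc1a1, around a median of 52.4% over all windows. Glul, with 2 CCAAT matches and 15 CpG pairs, and Slc1a1, with 27 CpG pairs, were unlike Slc1a2, Slc1a3 and Gfap, which had 1 or 2 CpG pairs. A match describes letters only.

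Glul, which encodes the enzyme that turns glutamate into glutamine, was the most abundant of the 7 genes per kilobase in every group, although at P1 its range in GFP- cells overlapped that of Slc1a3. Glul (chr1:155747074-155756853, plus strand, NCBIM37) was at 172 and 178 CPM in P1 GFP+ cells and at 168 and 146 CPM in P1 GFP- cells. The libraries did not overlap but lay close together, and the log2 fold change of 0.26 (SE 0.10) did not pass the test (adjusted p = 0.077, and 0.0042 to 0.25 over the alternatives, the lowest without P1 GFP- replicate 1). At P6 it was at 149.7 and 172 CPM in GFP+ cells and at 229 and 210.1 CPM in GFP- cells, again without overlap. The direction was now the opposite, with a log2 fold change of -0.46 (SE 0.17, adjusted p = 0.092). The change of the ratio between ages, 0.73 on the log2 scale (SE 0.19), had an adjusted p of 0.064, and 0.021 to 0.25 over the alternatives, the lowest without P6 GFP+ replicate 2. In GFP+ cells the level hardly moved with age (log2 fold change -0.03, SE 0.12, adjusted p = 0.87). In GFP- cells the P6 to P1 log2 fold change was 0.67 (SE 0.13, adjusted p = 0.013, and up to 0.080 over the alternatives, with 0.0016 without P1 GFP- replicate 1).

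Slc38a3, which exports glutamine from astrocytes, was a gene of the GFP- cells. Slc38a3 (chr9:107552970-107569705, minus strand, NCBIM37) was at 5.15 and 5.70 CPM in P1 GFP+ cells and at 71.9 and 54.2 CPM in P1 GFP- cells. The groups lay 10.8-fold apart (log2 fold change -3.44, SE 0.18, adjusted p = 4.0e-05). At P6 it was at 6.25 and 23.1 CPM in GFP+ cells and at 114 and 123 CPM in GFP- cells, where each library exceeded both P1 GFP- libraries. The P6 log2 fold change between fractions was -3.01 (SE 0.57, adjusted p = 0.013), against -4.23 without P6 GFP+ replicate 2 (adjusted p = 2.1e-10) and -2.33 without replicate 1 (3.3e-08). Between ages in GFP+ cells it was 1.53 (adjusted p = 0.13), or 0.33 without replicate 2 (0.22) and 2.16 without replicate 1 (2.7e-10). In GFP- cells Slc38a3 rose 2.15-fold with age (log2 fold change 1.10, SE 0.15, adjusted p = 0.0042). That call was lost without P6 GFP- replicate 1 (adjusted p = 0.026) without P6 GFP- replicate 2 (0.025), with all 8 libraries in the fit (0.13) and with scaling by library totals (0.012), with the same direction.

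Slc38a1, the system A carrier that brings glutamine into neurons, stood level between the fractions at P1. Slc38a1 (chr15:96401849-96473344, minus strand, NCBIM37) was at 101.2 and 97.0 CPM in P1 GFP+ cells and at 97.9 and 102.1 CPM in P1 GFP- cells, with full overlap and a log2 fold change of 0.09 (SE 0.09, adjusted p = 0.41), which turned to -0.01 when libraries were scaled by their totals alone. At P6 every library was lower, at 25.0 and 48.6 CPM in GFP+ cells and 64.9 and 62.9 CPM in GFP- cells. The P6 to P1 log2 fold change was -1.34 in GFP+ cells (SE 0.30, adjusted p = 0.037) and -0.45 in GFP- cells (SE 0.10, adjusted p = 0.025), neither below 0.01. Without P6 GFP+ replicate 2 the value in GFP+ cells was -1.86 (adjusted p = 1.9e-14) and without replicate 1 it was -0.97 (adjusted p = 2.7e-07), while the adjusted p was 0.026 without P1 GFP+ replicate 1 and 0.087 without P1 GFP+ replicate 2. The P6 difference between fractions, -0.80 with both libraries (adjusted p = 0.094), was -1.33 without replicate 2 (adjusted p = 4.1e-06) and -0.37 without replicate 1 (0.064). The difference between fractions changed with age by 0.91 (adjusted p = 0.17), by 1.44 without replicate 2 (0.0011) and by 0.54 without replicate 1 (0.058), and the adjusted p reached 0.40 over the alternatives.

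Gfap (chr11:102748650-102762226, minus strand, NCBIM37) was near the bottom of the range everywhere. It was at 0.218 and 0.241 CPM in P1 GFP+ cells and at 4.25 and 3.04 CPM in P1 GFP- cells. That is a 14.7-fold difference without overlap (log2 fold change -3.87, SE 0.37, adjusted p = 0.00036). At P6 it was at 0.394 and 1.37 CPM in GFP+ cells and at 3.31 and 4.28 CPM in GFP- cells, again without overlap. The log2 fold change was -2.04 (SE 0.54, adjusted p = 0.036). Without P6 GFP+ replicate 2 this was -3.24 (adjusted p = 3.6e-05) and without replicate 1 it was -1.44 (0.0039). Between ages the log2 fold change in GFP+ cells was 2.08 (adjusted p = 0.087) and 2.64 without P6 GFP+ replicate 1 (0.00037). Without replicate 2 the gene fell below the filter there and was not tested. In GFP- cells the adjusted p was 0.56. Even in GFP- cells its level was 0.864 ± 0.202 RPKM at P1 and 0.900 ± 0.164 RPKM at P6 (SD, n = 2), against 47.2 ± 4.64 and 65.9 ± 3.97 RPKM for Glul.

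**Figure D3:**
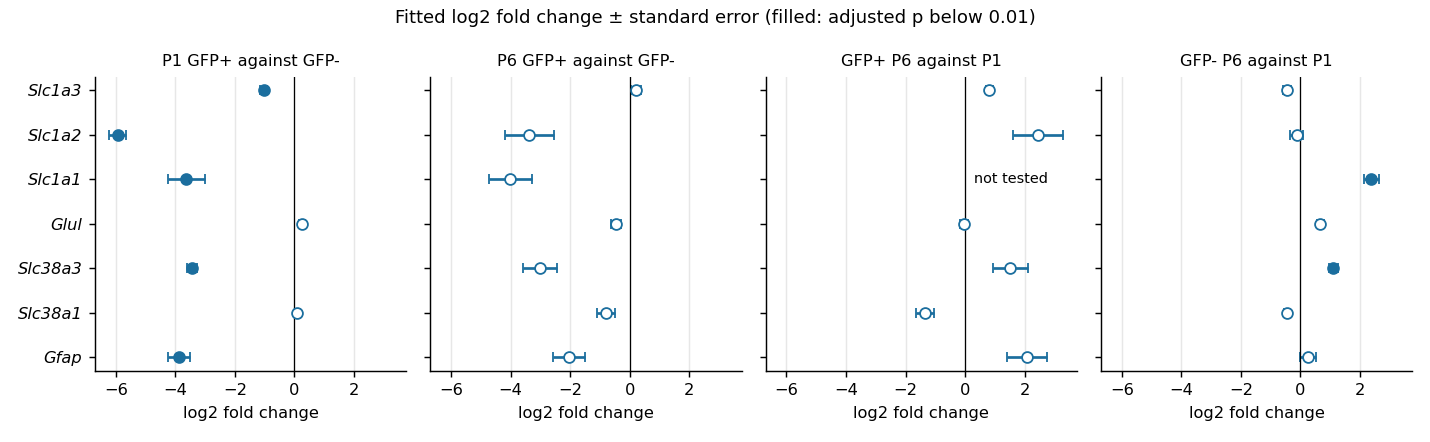
Log2 fold change with its standard error for each of the 7 genes in each of the 4 comparisons, filled where the adjusted p was below 0.01. 5 genes are filled in the P1 comparison of fractions, 0 in that at P6, 0 in the comparison of ages in GFP+ cells, where Slc1a1 was not tested, and 2 in that in GFP- cells.

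Counted over the 7 genes, 0 were called between the fractions at P6 by edgeR at adjusted p below 0.01, where 5.19% of all 18294 genes were lower and 7.72% higher in GFP+ cells. Of the 7, 4 were lower at adjusted p below 0.05, as were 17.9% of all genes. DESeq2 called 4, all lower, as were 12.8% of the genes it tested. Without P6 GFP+ replicate 2, 5 were lower and 0 higher, where 22.6% of all genes were lower and 17.9% higher. In the comparison of ages in GFP+ cells edgeR called 0 of the 6 genes tested, where 2.86% of 17213 genes were higher and 1.95% lower at P6. There DESeq2 called 2 of 7, Slc1a3 higher and Slc38a1 lower. Over all genes it called 10.4% higher and 6.20% lower. In GFP- cells 2 of the 7 were higher at P6 and 0 lower, against 5.04% and 2.34% of 18920 genes.

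The order of the levels per kilobase differed between groups. In P1 GFP+ cells it ran from Glul (52.6 ± 1.31 RPKM) through Slc1a3 (18.4 ± 0.0597) and Slc38a1 (11.8 ± 0.356) to Slc38a3 (1.60 ± 0.116), Slc1a2 (0.498 ± 0.0519), Gfap and Slc1a1, with no overlap between neighbours (SD, n = 2). In P1 GFP- cells Glul, Slc1a3 (40.5 ± 5.49) and Slc1a2 (32.7 ± 10.8) led, and their libraries overlapped. In P6 GFP+ cells Glul (48.3 ± 4.72) and Slc1a3 (30.5 ± 1.36) led without overlap, and Slc38a1, Slc38a3 and Slc1a2 could not be ordered beyond their spread. In P6 GFP- cells Slc38a3 (35.0 ± 1.76) came after Glul, followed by Slc1a2 (26.4 ± 0.758) and Slc1a3 (26.2 ± 1.03), which overlapped.

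Among the members, those that differed most between the replicates of P6 GFP+ cells, by 3.48 to 13.7 times, were Slc1a1, Slc1a2, Slc38a3 and Gfap, all higher in GFP- than in GFP+ libraries. Taken as a percentage of the mean of the P6 GFP- libraries, Slc1a2 was at 2.48% in replicate 1 and 17.0% in replicate 2. Slc38a3 went from 5.27% to 19.5% and Gfap from 10.4% to 36.2%. Over the same libraries the summed level of 10 fibrocyte and mesenchyme markers was 9.34% and 19.0% of that in GFP- cells, that of 8 macrophage markers 10.7% and 19.4%, and that of 8 melanocyte and strial markers 5.65% and 24.2%. Schwann and satellite cell markers (13 genes) were at 76.1% and 146%, and endothelial markers (8 genes) at 48.5% and 170.0%, so that in replicate 2 both exceeded the GFP- cells. Neuron markers (12 genes) summed to 146% and 150.1%, led by Isl1 at 276 and 240.3 CPM, and the other 11 summed to 142 and 188 CPM in the P6 GFP+ libraries and 253 and 201 CPM in the P6 GFP- libraries. Their median log2 fold change at P6 was -1.02. None of these markers was at 0 in either P6 GFP+ library. Their part in the values of Slc1a2, Slc38a3, Gfap and Slc1a1 in that library was not tested. Slc1a3 and Glul differed little between the same libraries, by 1.07 and 1.15 times.

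**Figure D4:**
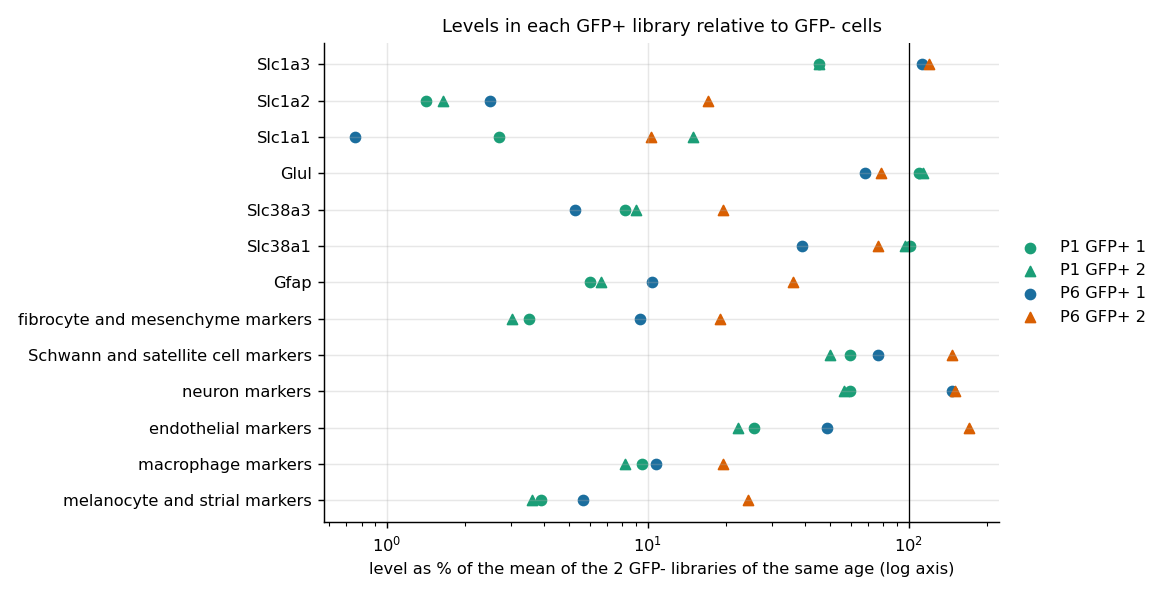
Level of each gene and summed level of each marker list in the 4 GFP+ libraries, as a percentage of the mean of the 2 GFP- libraries of the same age, on a log axis with a line at 100. Slc1a2 is at 1.41% to 2.48% in 3 libraries and at 17.0% in P6 GFP+ replicate 2, while Slc1a3 is at 45.3% and 45.5% in the P1 libraries and at 113% and 120.1% in the P6 libraries.

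Over the 8 libraries, with log2(CPM + 0.5) as the measure, Slc1a2 and Gfap were the pair of members most alike (Pearson's r = 0.995), followed by Slc38a3 with Gfap (0.983) and with Slc1a2 (0.976). Slc1a3 was less like Slc1a2 (0.701), and Slc1a3 and Glul ran apart (-0.332). These are descriptions over 8 libraries in 4 groups, and the points share fraction and library. Among all genes that passed the filter, the 3 most like Slc1a2 were Epha3 (0.999), an ephrin receptor, Abca9 (0.998), and Tbx18 (0.998), a T-box factor of otic mesenchyme that also stands among the fibrocyte and mesenchyme markers. For Gfap they were Arl5c, Parvg and Ddr2, a collagen receptor (0.996 to 0.998), and for Slc38a3 Nfam1, Edar and Cald1 (0.998 to 0.999). For Slc1a1 they were P4ha1, a collagen prolyl hydroxylase, Pdk1, a kinase of pyruvate dehydrogenase, and Cd22 (0.992 to 0.993). Those of Slc1a3 were Mum1l1, Nbn and Grik3, a kainate receptor subunit (0.970 to 0.981). For Slc38a1 they were Gm98, Zfp799 and Flrt2 (0.988 to 0.992), and for Glul the rarely detected genes Gpr160 and Serpind1 (0.940 and 0.931) were among them.

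The counts of the lists that follow stand beside the shares over all genes given above, 16.6% higher and 20.7% lower at P1 and 7.72% and 5.19% at P6, or 17.9% and 22.6% at P6 without P6 GFP+ replicate 2. Another list held 6 genes: the glutamate transporters Slc1a6 and Slc1a7, the neutral amino acid exchangers Slc1a4 and Slc1a5, and Slc7a11 with its partner Slc3a2. At P1 the genes called were the exchangers, Slc1a4 higher and Slc1a5 lower in GFP+ cells (-1.66, adjusted p = 0.00063), and 4 were not called. At P6, 1 was higher, Slc1a4, and 0 lower. Slc1a4, a neutral amino acid exchanger of the same family, was at 168.6 ± 4.84 CPM in P1 GFP+ and 29.5 ± 7.37 CPM in P1 GFP- cells (log2 fold change 2.61, adjusted p = 9.2e-05). At P6 it was at 74.6 ± 9.48 and 27.1 ± 0.380 CPM (1.46, adjusted p = 0.0037; SD, n = 2). Unlike Slc1a2, Slc1a4 was thus higher in GFP+ cells at both ages. The median log2 fold change of this list was -0.65 at P1 and -0.27 at P6, against 0.01 and -0.02 over all genes.

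Of 8 other glutamine transporters 7 were tested between fractions. At P1, 2 were higher and 3 lower in GFP+ cells, and at P6 1 was higher and 1 lower (medians -0.19 and -0.11; 1 and 3 at P6 without P6 GFP+ replicate 2). Slc6a14, a broad carrier of neutral and basic amino acids, was at 82.0 ± 3.20 CPM in P1 GFP+ cells and 0.908 ± 0.912 CPM in P1 GFP- cells (log2 fold change 6.45, adjusted p = 0.00020). At P6 the gene stood at 128 ± 29.6 against 2.77 ± 1.47 CPM (5.53, adjusted p = 0.0015; SD, n = 2). In the other direction Slc7a8, a light subunit of a neutral amino acid exchanger, was lower in GFP+ cells at P1 (log2 fold change -3.04, adjusted p = 5.2e-05) and at P6 (-2.81, adjusted p = 0.0074). Slc38a4 (-2.31, adjusted p = 0.00066) and Slc38a5 (-2.92, adjusted p = 0.0071), both of the family of Slc38a1 and Slc38a3, were lower at P1. In the comparison of ages in GFP- cells, 2 of the 7, Slc7a8 and Slc38a4, were higher at P6 and 0 lower. Over all genes in that comparison 5.04% were higher and 2.34% lower.

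Of 12 enzymes of glutamate and glutamine, 3 were higher and 1 lower in GFP+ cells at P1, and 2 higher and 0 lower at P6 (medians -0.01 and 0.04). Without P6 GFP+ replicate 2 the P6 counts were 3 and 2. Bcat1, a branched-chain aminotransferase of the cytosol, was the lower one (log2 fold change -5.12, adjusted p = 0.00017). A pair of enzymes below a fold of 4 were picked after their values were seen. The mitochondrial aspartate aminotransferase Got2 was at 248 ± 7.63 CPM in P1 GFP+ and 84.0 ± 12.3 CPM in P1 GFP- cells (SD, n = 2). It was higher in GFP+ cells at P1 (1.66, adjusted p = 0.00012) and at P6 (1.35, adjusted p = 0.0043). Gpt2, a mitochondrial alanine aminotransferase, fell with age in GFP+ cells (-0.95, adjusted p = 0.0079).

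Among 7 vesicular and mitochondrial glutamate carriers, 1 was higher and 2 lower in GFP+ cells at P1, and 1 higher and 0 lower at P6, or 1 and 2 without P6 GFP+ replicate 2 (medians -0.02 and -0.06). The lower pair were Slc17a6 (-3.69, adjusted p = 0.0037) and Slc17a7 (-3.72, adjusted p = 0.0039), which load glutamate into synaptic vesicles. In the same comparison 9 of 12 neuron markers were lower and 1 higher in GFP+ cells, with a median log2 fold change of -2.996. Without Isl1 they summed to 111 and 121 CPM in GFP+ cells and to 349 and 887 CPM in GFP- cells, and their part in these values was not tested. The mitochondrial carrier Slc25a18 was higher in GFP+ cells at P6 (2.17, adjusted p = 0.0060).

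Of 9 genes of GABA synthesis and uptake, a pathway that starts from glutamate, 7 were tested, of which 4 were higher and 1 lower in GFP+ cells at P1 and 3 higher and 0 lower at P6, or 4 and 1 without P6 GFP+ replicate 2 (medians 1.25 and 1.48). Gad2, 1 of the glutamate decarboxylases, had log2 fold changes of 3.32 at P1 (adjusted p = 0.00034) and 3.34 at P6 (0.020), and Gad1, the other, of 1.45 at P1 (0.028) and 3.05 at P6 (0.00096). Neither passed the test of interaction (adjusted p = 0.99 and 0.13). The GABA transporter Slc6a13 was lower at P1 (-3.43, adjusted p = 0.00041).

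Of 21 other astroglial genes, 20 were tested at P1, of which 8 were higher and 8 lower in GFP+ cells. At P6, 6 were higher and 1 lower of 21, and without P6 GFP+ replicate 2 these counts were 7 and 6. The median log2 fold change was -0.08 at P1 and -0.13 at P6. Higher in GFP+ cells at both ages were genes of ion buffering: the potassium channel Kcnj10 (1.66 and 2.29, adjusted p = 0.00014 and 0.0017) and the gap junction gene Gjb6 (1.87 and 2.47, adjusted p = 0.00016 and 0.0017). So was Aldoc, an aldolase of astrocytes (3.47 and 1.85, adjusted p = 0.00033 and 0.0053). The water channel Aqp4 was higher at P1 (5.10, adjusted p = 7.4e-05), at 17.8 ± 1.41 against 0.528 ± 0.262 CPM (SD, n = 2). At P6 its log2 fold change was 0.75 (adjusted p = 0.094), and the log2 ratio at P1 exceeded that at P6 by 4.38 in the test of interaction (adjusted p = 0.0025).

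On the other side, the gap junction gene Gja1 (-3.29, adjusted p = 0.00012), the intermediate filament genes Vim (-3.11, adjusted p = 1.5e-05) and Nes (-2.24, adjusted p = 5.9e-05), and the lipoprotein gene Apoe (-3.27, adjusted p = 1.8e-05) were lower in GFP+ cells at P1. So were Dio2 (-5.07, adjusted p = 0.00011), whose product activates thyroid hormone, the bicarbonate carrier Slc4a4 (-2.23, adjusted p = 6.7e-05) and Aldh1l1 (-2.57, adjusted p = 0.0080), a common marker of astrocytes. Gfap, the member with the same function as Vim and Nes, lay on this side too. Apoe remained lower in GFP+ cells at P6 (-2.29, adjusted p = 0.0050).

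Between ages, 6 of 20 astroglial genes were higher and 0 lower at P6 in GFP+ cells, and 7 of 21 were higher and 1 lower in GFP- cells (medians 1.19 and 0.63). In GFP+ cells these counts were 11 and 5 without P6 GFP+ replicate 2, where 22.5% of all genes were higher and 20.7% lower. Markers of other cells had higher medians in this comparison too, at 2.51 for fibrocyte and mesenchyme, 2.65 for endothelial, 2.43 for macrophage and 1.52 for Schwann and satellite cells. The fibrocyte and mesenchyme sum was 465 and 540 CPM in P1 GFP+ libraries and 1830 and 3724 CPM in P6 GFP+ libraries, and the part of these cells in the astroglial values was not tested. Rlbp1, a retinoid binding protein of glia, rose in GFP+ cells from 7.62 ± 1.69 to 61.3 ± 10.8 CPM (SD, n = 2; log2 fold change 3.09, adjusted p = 0.0035), with Kcnj10 (1.95, adjusted p = 0.0033), Gjb6 (1.86, adjusted p = 0.0056) and Vim (1.93, adjusted p = 0.0030). S100b rose in GFP- cells (2.81, adjusted p = 0.00050), as did Dio2 (5.35, adjusted p = 5.1e-05). In GFP+ cells Dio2 was at 0.514 ± 0.295 CPM at P1 and 78.5 ± 58.8 CPM at P6, so that the 2 libraries of the older age differed widely, and its log2 fold change of 7.45 had an adjusted p of 0.0062.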

How the data were processed

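mRNA was sequenced from GFP+ and GFP- cells of P1 and P6 mouse cochleas (non-stranded library kit, paired reads). The authors deposited unnormalised counts for Ensembl genes, made with TopHat (1.4.0 in the submitters' processing notes; the methods give another version) and HTSeq on mm9; HTSeq's mode and strand setting are not given in the sources used here. Reads on genes were 64.7% to 76.2% of those HTSeq listed, and its summary lines were left out. Here edgeR 4.0.16 (TMM, filterByExpr with a minimum count of 10 and a total of 15, quasi-likelihood test, Benjamini-Hochberg adjustment over all genes tested) compared 2 with 2 libraries, and the interaction was fitted over all 8. Calls are at adjusted p below 0.01, and below 0.05 for the interaction. DESeq2 1.42.0, other scalings, no filter, a fit of all 8 libraries, a replicate block and each library left out were alternatives. CPM uses the library's gene total, and RPKM the union exon length (NCBIM37). The edgeR tests of 2 against 2 libraries were tried on data simulated with a single dispersion for all genes. The interaction test, DESeq2 and the fits with a library left out were not tried in this way.

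All 7 genes are named, with the 3 genes most like each. List genes are given as counts, and by value where they passed adjusted p below 0.01 with a fold above 4 in at least 1 comparison or were set beside a member. Got2 and Gpt2 fall outside this rule, and a few genes that meet it are not reported here. Members and lists were chosen with earlier results of these data known. Same-numbered replicates did not deviate together (r = 0.036 between fractions at P1, 0.059 at P6, -0.158 between ages in GFP+ and -0.328 in GFP- cells). At the lowest total, 3 reads are 0.169 CPM; such limits cover counting error only. Exons of Slc1a1, Slc1a2 and Glul share 185, 189 and 67 bases with neighbouring genes, and without strand such reads cannot be assigned.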

Additional observations from a re-analysis of the deposited data

Results flagged for a closer look

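Slc1a3, which encodes the glutamate transporter GLAST, was singled out because its difference between GFP+ and GFP- cells was not the same at the 2 ages. Its log2 ratio at P1 minus that at P6 was -1.23 (SE 0.19, adjusted p = 0.0099 in edgeR's interaction test over 8 libraries). Both GFP+ libraries were below both GFP- libraries at P1 and above both at P6. The adjusted p ran from 1.2e-06 to 0.075 over 13 alternatives, with differences of -1.45 to -1.13.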

How the results depend on the processing

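Of 373 values of members under alternative settings, 292 kept their direction and side of the threshold, 61 passed it where they had not, 14 no longer passed and 6 reversed. The 6 were Slc38a1 between fractions at P1 (-0.012 with library totals only), Glul in GFP+ cells between ages (0.038 without P6 GFP+ replicate 1), Slc1a2 in GFP- cells between ages (0.26 without P1 GFP- replicate 1, -0.43 without P1 GFP- replicate 2), and the interactions of Slc1a1 (-0.99 without P1 GFP+ replicate 2 and -0.32 without P6 GFP+ replicate 1, up to 3.33 without P6 GFP+ replicate 2) and Slc38a3 (0.80 without P6 GFP+ replicate 2, -1.02 without P6 GFP+ replicate 1). The cause was not tested.

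Between fractions at P1, 5 members were called, and 3 to 6 with a library left out. At P6, 0 were called, against 2 with DESeq2's size factors, 4 with DESeq2's test, 4 with no filter, 4 with all 8 libraries in the fit, 4 at adjusted p below 0.05 and 0 to 5 with a library left out. In GFP+ cells between ages 0 were called, against 2 with DESeq2's test, 4 with no filter, 2 with all 8 libraries, 2 at adjusted p below 0.05 and 0 to 6 with a library left out. In GFP- cells 2 were called, against 4 with DESeq2's test, 0 with all 8 libraries, 4 at adjusted p below 0.05, 1 with a fold above 4 as well and 0 to 3 with a library left out. For the interaction 1 was called, against 2 with DESeq2's test, 5 with no filter and 0 to 5 with a library left out. Where a library was left out, the lone sample was assumed to vary like the others.

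The labels do not say whether same-numbered samples were paired, and correlations from 2 replicates per group cannot decide it. With a replicate block, 5, 3, 0 and 2 members were called in the 4 comparisons and 1 for the interaction. In the age comparisons the correlation was below -0.1, and a crossed pairing, chosen after seeing the data, called 1 member in GFP+ and 4 in GFP- cells (1254 and 3063 of all genes).

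Counts over all genes moved more. From 6972 at P1 they ran from 3675 to 9798 with a library left out. From 2363 at P6 they became 4747 with DESeq2's test, 5309 with no filter, 5157 with all 8 libraries and 0 to 7765 with a library left out. In GFP+ cells between ages, 828 became 2993, 4090, 2361 and 137 to 7531 in the same order. In GFP- cells, 1397 became 3041, 3993, 769 and 249 to 3029. For the interaction, 1228 became 2233 with DESeq2's test, 3201 with no filter, 750 with the replicate block and 337 to 2991 with a library left out. Scaling by library totals shifted the median log2 fold change by -0.19 in GFP- cells between ages, by -0.12 for the interaction and by -0.10 at P1. It changed the percentage of calls that were higher from 68.3 to 49.5 in GFP- cells, from 59.8 to 71.4 between fractions at P6, and from 43.7 to 33.0 for the interaction. Under that scaling the value of Slc38a3 in GFP- cells was 0.91 (adjusted p = 0.012) and that of Slc38a1 -0.65 (adjusted p = 0.0080). With 1 to 23 reads in 4 GFP+ libraries, depth limits what can be said of Slc1a1 in GFP+ cells.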
